A study of Mus musculus with 6 samples.

Results

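The transcripts of 10 genes of the NF-κB pathway were followed in haematopoietic stem cells (HSCs) in which the ETV6-RUNX1 fusion was or was not induced. The genes were chosen by name and comprised the 5 Rel family subunits (Nfkb1, Nfkb2, Rel, Rela and Relb), the inhibitor Nfkbia, the nuclear cofactor Nfkbiz, the feedback regulator Tnfaip3, the ubiquitin ligase Birc3 and the kinase Ikbkb. All 10 were found among the 55471 gene IDs of the deposited table, each with 1 row. All 6 libraries were of total RNA from mouse cells sorted as Lin- Kit+ Sca1+ CD48- CD150+, and all carry the genotype label ETV6-RUNX1, the fusion made by a translocation of childhood B-cell precursor leukaemia. The 3 uninduced libraries came from mice without doxycycline, and the 3 induced libraries from mice given doxycycline in food for 2 weeks. Strain, age, sex, the promoter that drives the fusion and whether mice were pooled are not given in the sources used here. Mice that lack the fusion but received the drug were not part of the comparison, so drug and fusion cannot be told apart.

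NF-κB is a family of dimeric transcription factors that wait in the cytoplasm, bound by IκB proteins. Signals from cytokine and pattern recognition receptors activate the IκB kinase complex, IκB is marked and destroyed, and the dimers enter the nucleus. Among the genes they switch on are their own inhibitors, such as Nfkbia and Tnfaip3, so that the response is brief, and some of their own subunits. In HSCs the pathway takes part in survival and in the response to inflammation. Activation occurs in large part at the protein level, which transcript abundance does not measure.

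Because the family binds κB motifs in DNA, matches to that motif near the start sites are shown before the values. RefSeq promoter windows (GRCm38.p6, 250 bases before to 50 after a start site) were at hand for 6 of the 10 genes, in 9 windows. The κB consensus, the decamer that NF-κB dimers bind, was searched on both strands. It was found in the windows of 4 genes, at 8 places once overlapping matches were merged, and in 8.46% of all 32851 windows of that length. The looser motif GGGNNNNNCC, which contains it, was found in windows of all 6 genes and in 50.8% of all windows. Both percentages count single windows, and some of the 6 genes had more than 1, so they are not rates per gene. Below, 1 place per gene is given on the gene's strand, 5′ to 3′ in 30 bases, with the κB match in capitals.
Nfkbia, chr12:55492657-55492686: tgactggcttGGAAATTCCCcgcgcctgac
Tnfaip3, chr10:19015403-19015432: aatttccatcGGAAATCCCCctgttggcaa
Rel, chr11:23771041-23771070: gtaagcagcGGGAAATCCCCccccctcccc
Nfkb2, chr19:46304689-46304718: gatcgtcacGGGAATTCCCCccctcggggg
The matches began 29, 12, 92 and 39 bases before the start sites of Nfkbia, Tnfaip3, Rel and Nfkb2. In Rel and Nfkb2 the capitals hold 2 overlapping matches. The GENCODE M21 annotation places the Nfkb2 stretch inside an annotated Nfkb2 exon and 8 bases of the Tnfaip3 stretch inside a Tnfaip3 exon. The stretches of Nfkbia and Rel lie outside their own exons. Windows of Birc3 and Rela held no match to the consensus. A match describes the letters only and is no measured site.

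None of the 10 genes changed past the test's threshold on induction. Expression was in TPM, a share of the library corrected for gene length, and was tested on log2(TPM + 1) with limma across 13470 genes, with Benjamini-Hochberg adjusted p under 0.05 as the threshold. All 10 genes passed the filter on low values, which asked for 1 TPM or more on average. Of these, 0 passed at adjusted p under 0.05 and 0 at an unadjusted p under 0.05, where 11.5% and 27.9% of all tested genes did. Adjusted p ranged from 0.225 (Nfkbia) to 0.903 (Rel), and log2 changes from -0.38 to 0.38. With 3 libraries a group, the 95% intervals reached beyond a log2 change of 1 in either direction for 5 of the genes, so changes of that size in those 5 cannot be set aside.

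The direction of most changes depended on the scale chosen. The median log2 change of all tested genes was -0.35, and nuclear protein-coding genes held 26.6% to 32.9% of TPM in uninduced and 20.5% to 23.2% in induced libraries. Whether that difference is one of scale or of RNA make-up was not tested. On the deposited scale 7 of the 10 genes had a change below 0, and their median was -0.17. After median-of-ratios scaling, which centres the typical gene, the median of all tested genes was -0.0027 and that of the 10 genes was 0.22. All 10 changes were then above 0, from 0.01 (Nfkbia) to 0.76 (Birc3), and again 0 passed at adjusted p (0.269 to 0.973) or at unadjusted p under 0.05, where 6.05% and 21.8% of all tested genes did. A direction for any of these genes therefore holds for the named scale at most, except in Rel, Relb and Birc3, whose changes were above 0 on both. Of these, Rel and Relb were below 0 on the deposited scale without some single libraries, at down to -0.19 (uninduced replicate 1) and -0.15 (uninduced replicate 3). Nfkbiz, Tnfaip3 and Ikbkb, below 0 on the deposited scale, were above 0 there without some single libraries. They reached 0.22 (without uninduced replicate 1), 0.15 and 0.05 (both without uninduced replicate 2).

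**Figure D1:**
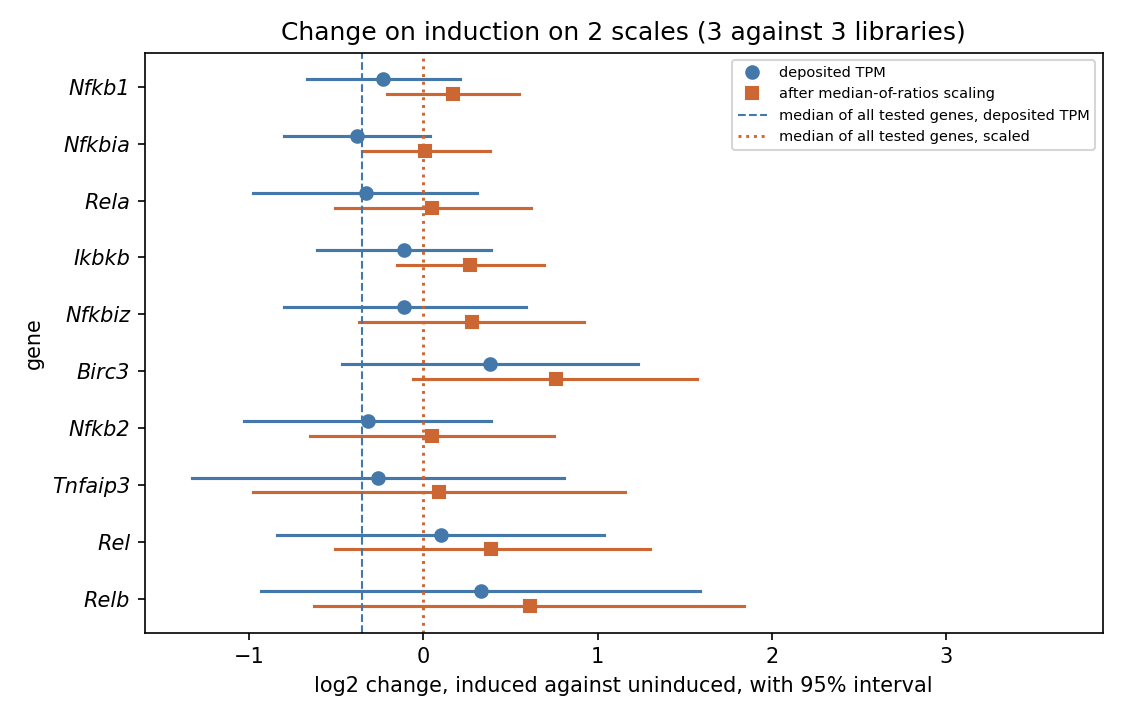
Log2 change on the log2(TPM + 1) scale (x axis) of each gene (y axis), induced against uninduced, with 95% limma intervals, on the deposited TPM (circles) and after median-of-ratios scaling (squares). Dashed and dotted lines mark the median of all tested genes, -0.35 and -0.0027, and every interval on both scales includes 0.

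Across genes, the levels spanned from Nfkb1, with a mean of 70.8 TPM over the 6 libraries, to Relb, with 2.5 TPM. The order between them was Nfkbia (44.9), Rela (34.4), Ikbkb (27.4), Nfkbiz (21.5), Birc3 (12.9), Nfkb2 (11.4), Tnfaip3 (7.87) and Rel (3.17 TPM). Only Nfkb1 stood apart from its neighbour, with its lowest library at 62.9 TPM and the highest of Nfkbia at 59.7 TPM. Every other pair of neighbours had overlapping ranges. Birc3 was above Nfkb2 in 3 of 6 libraries, and Rel above Relb in 3 of 6, so those orders are not resolved.

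**Figure D2:**
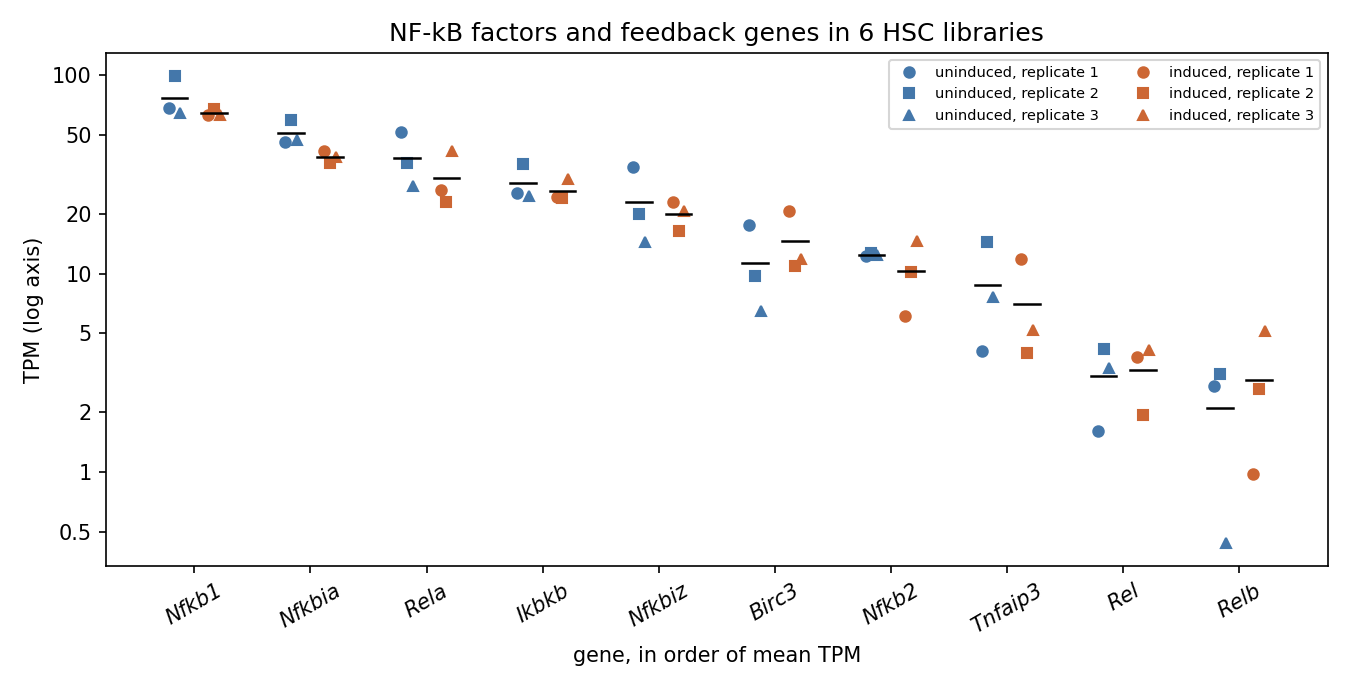
TPM (log axis) of the 10 genes in each library, in order of their mean, with uninduced libraries in blue, induced in orange, a symbol for each replicate and a bar at the group mean. Nfkbia is the only gene whose groups do not overlap (45.9 to 59.7 and 36.3 to 41.4 TPM), and Relb and Tnfaip3 spread most within groups.

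Among the subunits with a transactivation domain, Rela, Rel and Relb, Rela was by far the most abundant. Rela (ENSMUSG00000024927, chr19:5637483-5648130, plus strand) is the activating partner of the classical dimer. It was at 51.6, 36.2 and 27.7 TPM in uninduced replicates 1, 2 and 3, and at 26.5, 23.0 and 41.6 TPM in the induced replicates. Uninduced replicate 1 and induced replicate 3 were the highest of their groups, and the groups overlapped. The means were 38.5 ± 12.1 and 30.3 ± 9.9 TPM (n = 3 each, with the SD), and the log2 difference was -0.33 (SE 0.29, 95% interval -0.98 to 0.31, limma adjusted p 0.488), and 0.05 after scaling (adjusted p 0.93). The Rela difference was -0.11 without uninduced replicate 1 and -0.58 without induced replicate 3.

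Rel (ENSMUSG00000020275, chr11:23736847-23770970, minus strand) encodes c-Rel, a subunit best known from activated lymphocytes. Its values were 1.61, 4.16 and 3.36 TPM in uninduced and 3.82, 1.93 and 4.11 TPM in induced libraries. Each group held 1 low library and 2 between 3.36 and 4.16 TPM, and the log2 change was 0.10 (SE 0.42, interval -0.84 to 1.04, limma adjusted p 0.903). Relb (ENSMUSG00000002983, chr7:19606217-19629438, minus strand) is the subunit of the alternative pathway, where it pairs with the product of Nfkb2. It was at 2.73, 3.12 and 0.44 TPM in uninduced and 0.978, 2.63 and 5.12 TPM in induced libraries. Its lowest value was uninduced and its highest induced, but each group spread over more than the difference between the means, with the highest library 7.1 times the lowest in uninduced and 5.23 times in induced cells. The interval of the Relb change, -0.93 to 1.59, was the widest of the 10 (log2 change 0.33, limma adjusted p 0.745).

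The other two subunits are made as precursors, whose C-terminal part acts as an inhibitor until it is removed. Nfkb1 (ENSMUSG00000028163, chr3:135584655-135691547, minus strand), the partner of Rela, was at 68.2, 98.8 and 64.4 TPM in uninduced and at 62.9, 67.5 and 63.1 TPM in induced libraries. Apart from uninduced replicate 2, the libraries lay within 62.9 to 68.2 TPM. The means were 77.1 ± 18.9 and 64.5 ± 2.61 TPM (SD, n = 3 each), with a log2 change of -0.23 (SE 0.20, interval -0.67 to 0.21, limma adjusted p 0.486). Without uninduced replicate 2 the change was -0.04. After scaling it was 0.17 (interval -0.21 to 0.55), which bounds any rise of Nfkb1 relative to the typical gene below 1 log2 unit.

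Nfkb2 (ENSMUSG00000025225, chr19:46304320-46312385, plus strand) was at 12.3, 12.7 and 12.4 TPM in uninduced libraries, the tightest group among the 10 genes. The induced libraries were at 6.09, 10.2 and 14.7 TPM, on both sides of it. The log2 change was -0.32 (SE 0.32, interval -1.03 to 0.39, limma adjusted p 0.554), and it was -0.02 without induced replicate 1. On the opposite strand, exons of Psd and AC114539.1 share 6.52% and 11.6% of the exonic bases of Nfkb2. Whether the authors counted by strand is not given in the sources used here, so the Nfkb2 values are uncertain to that extent. No exon of another gene overlapped the exons of the other 9.

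The make-up of the Rel family does not depend on the scaling between libraries, since it is a share within each library. Nfkb1 held 57.7% ± 7.06 of the summed TPM of the 5 subunits in uninduced and 58.6% ± 8.34 in induced cells (SD, n = 3 each). Rela held 28.9% ± 7.78 and 26.9% ± 5.27, Nfkb2 9.54% ± 1.68 and 9.08% ± 2.75, Rel 2.32% ± 1.01 and 2.95% ± 1.01, and Relb 1.47% ± 0.924 and 2.48% ± 1.5. Every share overlapped between the groups, and each difference between means was smaller than the SD of either group, except that the Relb difference of 1.01 percentage points exceeded the uninduced SD. Uninduced replicate 1 and induced replicate 3 had the most Rela, at 37.8% and 32.3% of the summed TPM, and the least Nfkb1. In the other 4 libraries Rela held 21.8% to 26.4% and Nfkb1 59.5% to 64.1%.

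**Figure D3:**
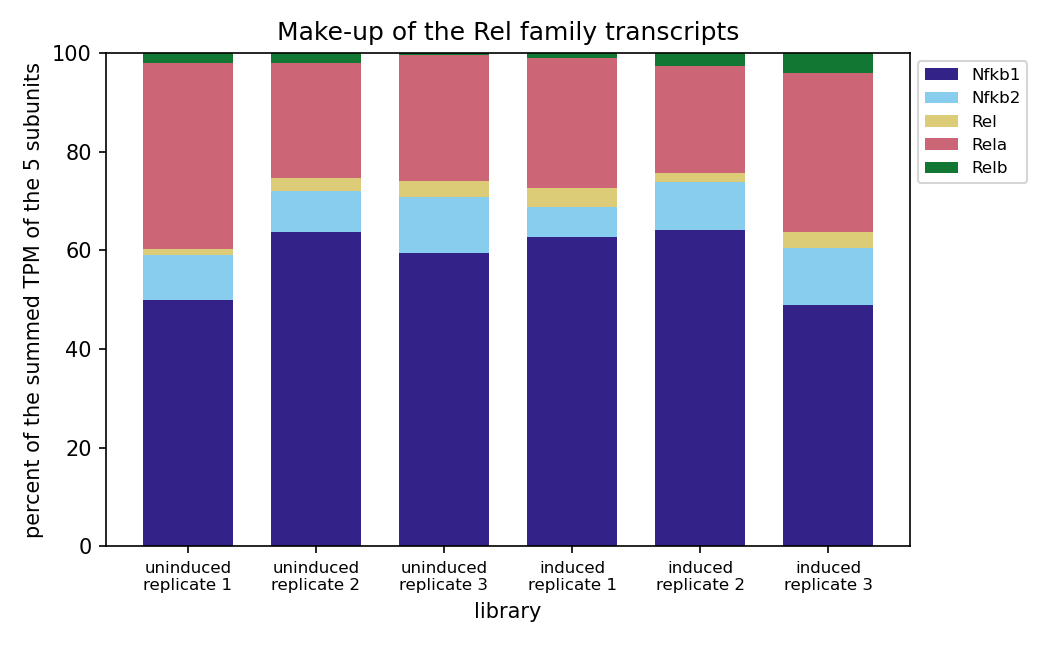
Percent of the summed TPM of the 5 Rel family subunits (y axis) held by each subunit in each library (x axis). Nfkb1 and Rela fill most of every bar, and uninduced replicate 1 and induced replicate 3 share a larger Rela part (37.8% and 32.3%).

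Nfkbia (ENSMUSG00000021025, chr12:55489410-55492647, minus strand) encodes IκBα, an inhibitor that NF-κB quickly induces and that holds Rela and Nfkb1 dimers in the cytoplasm. It was at 45.9, 59.7 and 47.2 TPM in uninduced and at 41.4, 36.3 and 38.6 TPM in induced libraries. Every induced library lay below every uninduced one. Nfkbia was the only 1 of the 10 genes without overlap, where 33.1% of all tested genes had none (4.83% with the induced libraries higher and 28.2% lower), so the separation is common on this scale. The means were 51.0 ± 7.61 and 38.8 ± 2.51 TPM (n = 3 each, with the SD), and the log2 difference was -0.38 (SE 0.19, interval -0.80 to 0.04, limma adjusted p 0.225). After scaling the values were 39.0, 48.1 and 45.5 against 47.3, 44.8 and 41.6, and the change was 0.01 (interval -0.35 to 0.38, adjusted p 0.973). The groups then overlapped in all 10 genes, where 27.9% of all tested genes had no overlap (13.4% higher and 14.5% lower). Its change on the deposited scale differed from that of the median gene by -0.03. Nfkbia varied little among replicates, with a within-group SD of 0.16 log2 units, where the 500 tested genes nearest in level had a median of 0.26.

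The ratio of the inhibitor to its targets was also read within libraries. Nfkbia was at 0.673, 0.604 and 0.733 times the TPM of Nfkb1 in uninduced and at 0.658, 0.538 and 0.612 times in induced libraries, with overlap. Against Rela it was at 0.889, 1.65 and 1.7 times in uninduced and 1.56, 1.58 and 0.928 times in induced libraries. The low ratios were those of uninduced replicate 1 and induced replicate 3, the libraries with the highest Rela in their groups.

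Nfkbiz (ENSMUSG00000035356, chr16:55811375-55838899, minus strand) encodes IκBζ, a nuclear protein that helps Nfkb1 dimers activate further genes. It was at 34.4, 20.0 and 14.4 TPM in uninduced and at 22.9, 16.5 and 20.8 TPM in induced libraries. The uninduced libraries enclosed all the induced ones, and the log2 change was -0.11 (SE 0.31, limma adjusted p 0.858). Without uninduced replicate 1 it was 0.22. Tnfaip3 (ENSMUSG00000019850, chr10:19000910-19015657, minus strand) encodes the ubiquitin-editing enzyme that ends signalling from the TNF receptor. Its libraries were at 4.1, 14.5 and 7.59 TPM in uninduced and at 11.8, 3.97 and 5.22 TPM in induced cells. High and low libraries occurred in both groups, with the highest 3.54 and 2.99 times the lowest. The log2 change was -0.26 (SE 0.48, interval -1.33 to 0.81, limma adjusted p 0.766). Without uninduced replicate 2 it was 0.15, and without induced replicate 1 it was -0.66.

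Birc3 (ENSMUSG00000032000, chr9:7848699-7873186, minus strand) encodes a ubiquitin ligase that protects cells from TNF-induced death and restrains the alternative pathway. It was at 17.7, 9.79 and 6.45 TPM in uninduced and at 20.8, 10.9 and 11.9 TPM in induced libraries. The means were 11.3 ± 5.8 and 14.5 ± 5.44 TPM (SD, n = 3 each), and uninduced replicate 1 lay above 2 of the induced libraries. Its log2 change was 0.38 (SE 0.38, interval -0.47 to 1.23, limma adjusted p 0.548). After scaling it was 0.76 (SE 0.36, interval -0.06 to 1.57, unadjusted p 0.0667, adjusted p 0.269), still with overlapping groups. Without uninduced replicate 3 the deposited-scale change was 0.07, and without uninduced replicate 1 it was 0.74. The genes whose centred log2 values lay nearest to those of Birc3 over the 6 libraries were March2, Zfp521 and Rhbdf2, at Euclidean distances of 0.329, 0.381 and 0.384, where the median gene was at 1.73. Birc3 was taken for this by the size of its change, which to 2 decimals equals that of Nfkbia on the deposited scale and is the largest of the 10 after scaling, and the distances describe 6 libraries only.

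Ikbkb (ENSMUSG00000031537, chr8:22659212-22706589, minus strand) encodes IKKβ, the kinase that marks IκB for destruction in the classical pathway. Its values were 25.5, 35.6 and 24.7 TPM in uninduced and 24.3, 24.2 and 29.9 TPM in induced libraries. Uninduced replicate 2 was the highest, the other libraries lay within 24.2 to 29.9 TPM, and the log2 change was -0.11 (SE 0.22, interval -0.61 to 0.39, limma adjusted p 0.782). After scaling it was 0.27 (interval -0.15 to 0.69), and on the deposited scale without uninduced replicate 2 it was 0.05. Of the 10 genes, 5 were highest in uninduced replicate 2 on the deposited scale. After scaling 1 was highest there, 5 were highest in induced replicate 3 and 5 were lowest in uninduced replicate 1. Uninduced replicate 2 had the largest share of nuclear protein-coding TPM, 32.9%, and its part in these values was not tested.

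Spread within groups was compared with that of other genes, and its part in the lack of calls was not tested. For 7 of the 10 genes the within-group SD on the log2 scale was above the median of the 500 tested genes nearest in level. It was largest against that measure in Tnfaip3 (0.76 against 0.43), Rela (0.44 against 0.28) and Birc3 (0.58 against 0.37), each above 86.2% or more of those 500 genes. Nfkbia, Ikbkb and Rel were tighter, above 14.6%, 31.8% and 41.8%.

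The other genes of the pathway were read from 5 lists, 143 genes without the 10 above, of which 102 reached the filter. In them 7 genes rose and 2 fell, together 8.82% of those tested, where 11.5% of all tested genes passed (1.29% higher and 10.2% lower). Without uninduced replicate 1, 2 or 3 the 9 calls became 4, 2 and 7, and without induced replicate 1, 2 or 3 they became 2, 3 and 2. Calls over all genes fell too, from 1549 to between 611 and 1276. The median change of the 102 genes was -0.02 beside -0.35 for all tested genes. After scaling, 14 rose and 0 fell, or 13.7% of those tested, where 6.05% of all tested genes passed (2.84% higher and 3.21% lower), and the medians were 0.35 and -0.0027. These are counts over chosen lists and were not tested as sets.

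Receptors and ligands had 15 of 33 genes above the filter, of which 2 rose and 1 fell. Ltb, which encodes lymphotoxin beta, a ligand that feeds the alternative pathway, was at 30.6, 50.2 and 47.0 TPM in uninduced and at 120, 113 and 112 TPM in induced libraries. The groups were far apart, and the log2 change was 1.44 (SE 0.21, limma adjusted p 0.00408). Ltb passed under each of the 16 alternative settings run. Tnfrsf13b, the receptor TACI, rose (limma adjusted p 0.0488), with means of 17.3 ± 1.35 and 44.1 ± 24.4 TPM (n = 3 each, with the SD) and induced replicate 1 at 71.9 TPM, and the call was lost under 10 of the 16, among them when any library except induced replicate 2 was left out (adjusted p 0.0801 to 0.123). Tnfrsf12a, the receptor of the cytokine TWEAK, fell from 3.59, 8.47 and 2.72 TPM to 0, 0.923 and 0.86 TPM (log2 change -1.83, limma adjusted p 0.0429), and passed under 2 of 15, being lost when any library except uninduced replicate 3 was left out (adjusted p 0.0753 to 0.137). Its change was -3.28 with a pseudocount of 0.1 TPM and -0.79 with 5 TPM. Tnfrsf1a, the main TNF receptor, was well expressed at 38.8 to 50.6 TPM in uninduced and 35.9 to 44.7 TPM in induced libraries and did not pass (adjusted p 0.744). Tnf itself stayed under the filter, at 0, 0 and 1.54 TPM in uninduced and 1.14, 0.319 and 1.61 TPM in induced libraries. Il1a, Lta, Il33, Cd40 and Cd40lg were among 7 genes listed at 0 in all 6 libraries.

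Bcl3 was the only call among 13 tested genes for other IκB proteins and nuclear cofactors. It is an atypical IκB protein that binds the Nfkb1 and Nfkb2 products in the nucleus. Bcl3 was at 3.49, 3.65 and 5.59 TPM in uninduced and at 11.9, 9.82 and 12.5 TPM in induced libraries, with no overlap. The log2 change was 1.26 (SE 0.30, limma adjusted p 0.0273), and 1.60 after scaling (adjusted p 0.0173). Leaving out any library but uninduced replicate 3 lost the call, with adjusted p of 0.07 to 0.0904. It was also lost with the replicate block (0.0552) and without the filter (0.062), and so under 7 of 16 settings. The inhibitors Nfkbib and Nfkbie, close relatives of Nfkbia, did not pass, with log2 changes of -0.43 and 0.49 (limma adjusted p 0.351 and 0.479).

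Ubiquitin editors and adaptors had 38 of 41 genes above the filter, and 1 rose. That was Traf1, an adaptor and textbook NF-κB target, at 4.38, 0.741 and 1.89 TPM in uninduced and 7.73, 6.57 and 12.1 TPM in induced libraries (log2 change 1.67, SE 0.46, limma adjusted p 0.044). The groups did not overlap, yet the call was lost under 9 of 16 settings, among them when any library except uninduced replicate 1 was left out (adjusted p 0.0846 to 0.137). Birc2, the closest relative of Birc3, was at 23.5 to 30.7 TPM in uninduced and 19.8 to 31.5 TPM in induced libraries and did not pass (adjusted p 0.838). The same was true of Cyld, a deubiquitinase that ends signalling, with an adjusted p of 0.99.

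All 12 genes of the IκB kinase complex and upstream kinases were tested, and 0 passed on the deposited scale, with 3 at an unadjusted p under 0.05. After scaling 2 rose, Ikbkg and Map3k3, named here after their values were seen. Ikbkg, the regulatory subunit that works beside Ikbkb, was at 7.06, 11.6 and 6.69 TPM in uninduced and 12.4, 13.4 and 17.6 TPM in induced libraries. Its log2 change was 0.74 on the deposited scale (limma adjusted p 0.137) and 1.10 after scaling (adjusted p 0.0415). Chuk, the other kinase subunit, did not pass on either scale (adjusted p 0.606 and 0.927).

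Textbook NF-κB target genes had 25 of 44 members above the filter, of which 3 rose and 1 fell, or 7 and 0 after scaling. Ccl3, a chemokine, was at 1.43, 0 and 0 TPM in uninduced and 4.54, 6.66 and 4.44 TPM in induced libraries (log2 change 2.19, SE 0.48, limma adjusted p 0.0188). With 2 uninduced values at 0, the size of the Ccl3 change depends on the pseudocount, at 4.39 with 0.1 TPM and 0.90 with 5 TPM. Bhlhe40, a repressor induced by many stimuli, rose by 1.52 on the log2 scale (limma adjusted p 0.016), with means of 9.26 ± 3.58 and 27.3 ± 5.20 TPM (n = 3 each, with the SD), and passed under 14 of 16 settings, but not without induced replicate 1 (adjusted p 0.0643). Sqstm1, an autophagy receptor, rose by 0.69 (limma adjusted p 0.0414), with means of 52.4 ± 9.19 and 84.3 ± 3.91 TPM (n = 3 each, with the SD). Ccnd1, the D-type cyclin, fell by 1.55 (limma adjusted p 0.0227), with means of 13.6 ± 3.37 and 4.13 ± 2.04 TPM (n = 3 each, with the SD), a call lost after scaling (-1.21, adjusted p 0.0745). Ccl3 and Sqstm1 lost their calls under 5 of 15 and 9 of 16 settings. Sqstm1 did not pass when any 1 of the 6 libraries was left out (adjusted p 0.058 to 0.113), and Ccl3 not without uninduced replicate 2 or any induced library (0.0531 to 0.0917). Ccnd1 did not pass without uninduced replicate 1 or 2 or induced replicate 2 or 3 (0.0677 to 0.0862). The acute inflammatory targets Il6, Cxcl1, Csf2 and Nos2 were listed at 0 in all 6 libraries. Zfp36, an early response gene, was high in every library, at 150 to 183 TPM in uninduced and 154 to 189 TPM in induced libraries (adjusted p 0.942). After scaling its log2 change was 0.42 (limma adjusted p 0.055).

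**Figure D4:**
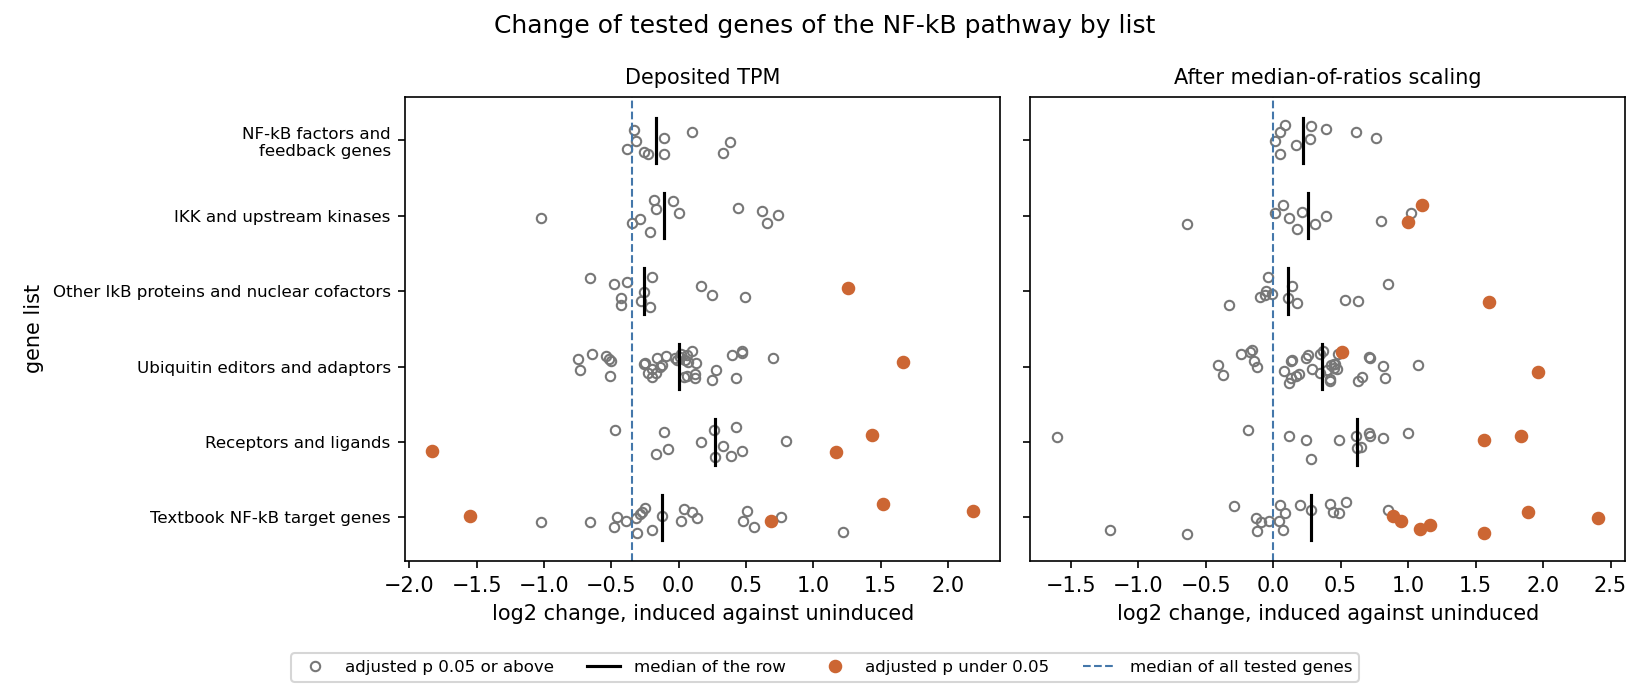
Log2 change on the log2(TPM + 1) scale (x axis) of the 10 genes and of the tested genes of each pathway list (rows), on the deposited TPM (left) and after median-of-ratios scaling (right). Filled points passed at adjusted p under 0.05, black bars mark row medians and the dashed line marks the median of all tested genes. The top row has 0 filled points on either scale, while the lists hold 9 genes past the threshold on the left and 14 on the right.

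The sort label was checked against markers. The list of 15 HSC markers summed to 612 to 756 TPM in uninduced and 684 to 746 TPM in induced libraries. Of them, 6 were higher and 3 lower in every induced library than in any uninduced one. Of all tested genes, 4.83% were higher and 28.2% lower in that way. The list also holds Cd48, which the sort selects against, and Cd34 and Flt3, which are not particular to stem cells. The sum and counts therefore do not cover stem cell markers only. Cd34 was among the 6 higher, at 43.8 to 55.9 TPM in uninduced and 61.5 to 83.6 TPM in induced libraries. Of 9 B lymphoid markers 6 were at 0 throughout (Cd79a, Ms4a1, Pax5, Ebf1, Dntt and Il7r), and of the 9 T and NK markers 5 were at 0 (Cd3e, Cd3d, Cd3g, Cd8a and Ncr1). Their summed levels were 4.35 to 9.86 and 5.84 to 17.2 TPM in uninduced and 3.11 to 3.85 and 0.253 to 4.0 TPM in induced libraries. Both sums were lower without overlap, but in each list this held for 1 gene only, Cd79b (4.21, 9.86 and 7.06 TPM to 3.85, 3.11 and 3.59 TPM) and Nkg7 (6.21, 15.8 and 5.84 TPM to 0 in all 3), named after their values were seen. The 15 mature myeloid markers, all above 0 in some library, summed to 288 to 355 and 272 to 315 TPM, and the 8 megakaryocyte and platelet markers, likewise, to 103 to 139 and 120 to 131 TPM. Within these overlapping sums single markers likewise separated in both directions, 1 higher and 3 lower of the myeloid and 3 higher and 3 lower of the megakaryocyte list, beside the same 4.83% and 28.2% of all tested genes. Prtn3 was at 16.1 to 21.0 TPM in uninduced and 35.4 to 47.4 TPM in induced libraries, and Ngp at 29.4 to 35.0 and 17.7 to 22.6 TPM. Pf4 was at 21.6 to 41.3 and 54.2 to 70.5 TPM, and Gp9 at 12.0 to 23.9 and 0.564 to 5.56 TPM. The 7 erythroid markers, among them 4 globin genes that held most of the sum, summed to 54.1 to 60.4 TPM in uninduced and 397 to 462 TPM in induced libraries, without overlap. Alas2 was likewise higher in every induced library, Klf1 overlapped (0.0352 to 1.94 and 1.53 to 4.11 TPM), and Epor was lower, at 3.42, 2.1 and 4.57 TPM in uninduced and 0, 0 and 1.45 TPM in induced libraries. Their part in the values above was not tested, and in bulk samples a change in cell numbers cannot be told apart from a change in RNA per cell. Neither parent gene of the fusion passed: Etv6 was at 79.0 to 95.4 and 79.4 to 86.8 TPM, and Runx1 at 29.4 to 46.1 and 39.3 to 49.8 TPM. After scaling their log2 changes were 0.38 and 0.66 (limma adjusted p 0.133 and 0.0741). The mouse gene rows do not separate the fusion transcript, so they do not check its induction.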

How the data were processed

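The deposited table holds TPM, with a column per library, and is named for StringTie. Per the submitters' processing notes, bcl2fastq, HISAT2, StringTie and DESeq2 and the build GRCm38 were used. Their versions, the annotation release and filters are not given in the sources used here. TPM keeps no depth, so depth is unknown and no counting interval can be given. Columns were matched to samples by title. The 60496 rows include 5025 that carry an ID already listed. Values were added up within each ID, and no ID had more than 1 row above 0.

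Tests used log2(TPM + 1) in limma 3.58.1 under R 4.3.3 (empirical Bayes, variance trend, two-sided, all 6 libraries, no covariate), for genes averaging 1 TPM or more, after tests on simulated data. Fold changes on this scale understate low genes. P-values weigh the difference between groups against the spread among libraries within groups, moderated across genes. Whether that is a spread between single mice is unknown, since pooling is not given. Gene positions are from GENCODE M21 (GRCm38). The members and lists were chosen with earlier results of these data known. All 10 members are named, and of each list up to 3 calls in each direction with the largest change. A few other list genes were named for their role or after their values were seen. Alternatives covered the pseudocount, filter, scaling, variance model, replicate block, repeated rows and each library in turn. Some genes of the marker lists are not reported here.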

Additional observations from a re-analysis of the deposited data

How the results depend on the processing

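The count of 0 of the 10 genes past the threshold held under all 16 alternatives, with adjusted p of 0.188 to 0.996. Without the filter, 1 of the 10 had an unadjusted p under 0.05. Each alternative changed 1 setting of the main fit, so no library was left out after a rescaling. With the filter at 5 TPM, Rel and Relb could not be tested. The 3 rescalings (median-of-ratios, quantile, and to nuclear protein-coding genes) turned 7 of the 10 changes, and that of Etv6, from below to above 0. In that order they gave Nfkb1 0.17, 0.18 and 0.20, Nfkb2 0.05, 0.04 and 0.08, Rela 0.05, 0.07 and 0.09, Nfkbia 0.01, 0.00198 and 0.05, Nfkbiz 0.28, 0.29 and 0.32, Tnfaip3 0.09, 0.10 and 0.14, Ikbkb 0.27, 0.29 and 0.32, and Etv6 0.38, 0.36 and 0.42. With each library left out in turn, the change was -0.19 to 0.35 for Rel, -0.58 to -0.11 for Rela, -0.15 to 0.75 for Relb, -0.38 to 0.22 for Nfkbiz, -0.66 to 0.15 for Tnfaip3, -0.21 to 0.05 for Ikbkb and -0.07 to 0.07 for Etv6. The 9 calls in the pathway lists became 1 without the filter, 14 under each rescaling, 5 without the variance trend and 2 to 7 without a library (2 without uninduced replicate 2, induced replicate 1 or induced replicate 3, 3 without induced replicate 2 and 4 without uninduced replicate 1). The 1549 calls over all genes became 752 without the filter, 815, 814 and 788 under the rescalings, 767 without the trend and 611 to 1276 without a library. The replicate block left 902 calls over all genes, 4 in the lists and 0 of the 10. Same-numbered libraries correlated at -0.0152 to 0.0215 in their deviations from group means, and not every library correlated best with its own number. Over the 9 called list genes and the settings other than leaving out a library, a call was lost in 28 combinations of gene and setting, none of them for Ltb. In many of these the change was as large as before or larger, as in Traf1 at 1.67 with the replicate block (adjusted p 0.0532) and 2.14 with a pseudocount of 0.1 TPM (0.0536). With 5 TPM as the pseudocount the changes were smaller by over 1.5 times in Bcl3 (0.83), Traf1 (0.92), Ccnd1 (-1.03), Ccl3 (0.90) and Tnfrsf12a (-0.79). Beyond the scalings, the cause was not tested. Shares within the Rel family moved by less than 1 SD under every alternative run, though without single libraries the differences in share changed sign for Nfkb1 (-2.99 to 5.69 percentage points), Nfkb2 (-1.65 to 1.05) and Rela (-4.85 to 2.38). The depth of each library is unknown, so the counting error of low genes such as Relb and Rel cannot be given.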
